A study of Mus musculus with 4 samples.

Results

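The genes described here encode the proteasome, the protease that degrades ubiquitin-tagged proteins, and its inducible form, the immunoproteasome, in macrophages of mouse visceral fat. All gene symbols that start with Psma, Psmb, Psmc, Psmd or Psme were taken, 45 in all. Members are the 42 with at least 10 counts per 1000000 (CPM) in the pooled filtered cells of 1 library or more. The files list 32285 genes, of which 8467 reach the same level. By role, the members comprise 31 constitutive subunits, 5 immunoproteasome genes (Psmb8, Psmb9, Psmb10, Psme1 and Psme2), 3 assembly factors of the regulatory particle (Psmd5, Psmd9 and Psmd10), the activators Psme3 and Psme4, and Psme2b, a retrocopy of Psme2. The 3 symbols under the limit were Psmc3ip, which encodes a recombination protein and no subunit, at up to 5.76 CPM, the testis subunit Psma8 at up to 1.33 CPM and the thymus subunit Psmb11 at up to 0.0269 CPM. Just inside it stood Psme2b at up to 17.9 and Psmd5 at up to 23.01 CPM.

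The series profiled single macrophages sorted from perigonadal white fat (live, CD45+, CD11b+ and CD64+ cells without lineage markers) with the 10x Genomics 3′ chemistry, to follow how subsets and functions of these cells differ when BLIMP1, the repressor encoded by Prdm1, is deleted. It holds 4 libraries, each of which is 1 group: WT and CKO, for a conditional knockout of BLIMP1, each under a high fat diet (HFD) and the normal diet (ND). The sources used here do not give what drives the knockout, the deleted exons, the mouse strain and age, or the number of animals per library. With 1 library per group there are no replicates, so no test was run and no difference can be set against a spread between animals. All intervals are exact 95% intervals that cover counting error only.

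In the core particle of the proteasome, rings of alpha subunits (Psma genes) enclose rings of beta subunits (Psmb genes), and Psmb5, Psmb6 and Psmb7 carry the proteolytic sites. Interferon gamma is known to induce Psmb8, Psmb9 and Psmb10, whose products take the places of Psmb5, Psmb6 and Psmb7 in newly built particles and shift the peptides that are cut towards those that MHC class I molecules bind. The regulatory particle, a base with 6 ATPases (Psmc genes) under a lid, unfolds tagged proteins and feeds them into the core. Psme1 and Psme2 form the activator PA28, which caps the core in its place and is also interferon-induced, while Psme3 and Psme4 encode other caps found mainly in the nucleus.

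The libraries kept 3596 (WT ND), 4154 (CKO ND), 4478 (WT HFD) and 8122 (CKO HFD) cells. The median depth was 4004, 3819, 14361 and 3738 UMIs per cell in that order, so WT HFD had far more UMIs per cell than the others. Libraries shared 2 to 12 cell barcodes by pair. Dendritic, lymphoid and fibroblast clusters were set aside, and the other cells, 3259, 3839, 4313 and 7893, are called phagocytes. Macrophage genes were present in every library, with Adgre1 at 291, 302, 409 and 347 CPM in the order above, and of the lineage genes Cd3e reached at most 0.094 CPM while Ncr1 and Ly6g had no UMI. Prdm1 stood at 22.9 CPM in WT ND, 28.4 in CKO ND, 22.4 in WT HFD and 23.6 in CKO HFD and was not lower in the libraries labelled CKO. UMIs at the 3′ end may lie outside the deleted exons, so this neither checks nor contradicts the labels, and CKO below means the library so labelled. Transcripts known as free RNA of other cells moved with that label: 14 such genes summed to 40.96 CPM in WT ND, 192 in CKO ND, 15.3 in WT HFD and 205 in CKO HFD, most of it Igkc in CKO HFD and CKO ND. All 3 measured genes of that list (Car3, Igkc and Jchain) were over 1.5-fold higher in CKO than in WT under HFD, where 5.33% of all genes were. Under the normal diet 1 of 3 (Igkc) was, where 0.370% of all genes were. The ribosomal-RNA-like transcript Gm42418 took 44862 CPM of WT HFD but 7001 of CKO HFD. The part of the free RNA in the results was not tested. With Gm42418, Malat1, mitochondrial and ribosomal genes left out of the total, the log2 ratio of Psmb9 for CKO over WT under HFD was 0.64, beside 0.63 with the full total.

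Promoter windows of the genes on which the results turn are shown here, each with 250 bases before and 50 after the start site that RefSeq gives on GRCm38.p6. Windows were found for 36 of the 42 members. Psmb8 and Psmb9 are shown as the inducible genes that differed most from each other between diets, and Psmb5 and Psmb6 as the constitutive subunits they replace. The Psmb9 window lies at chr17:34187281-34187580 on the minus strand, Psmb8 at chr17:34197945-34198244 on the plus strand, Psmb5 at chr14:54617946-54618245 on the minus strand and Psmb6 at chr11:70525107-70525406 on the plus strand. Capitals mark matches, on either strand, to an interferon-stimulated response element (ISRE, which is GAAA, then 2 bases of any kind, then GAAA), an interferon-gamma-activated site (GAS, TTCNNNGAA) or an antioxidant response element core (ARE, TGACNNNGC).
Psmb9: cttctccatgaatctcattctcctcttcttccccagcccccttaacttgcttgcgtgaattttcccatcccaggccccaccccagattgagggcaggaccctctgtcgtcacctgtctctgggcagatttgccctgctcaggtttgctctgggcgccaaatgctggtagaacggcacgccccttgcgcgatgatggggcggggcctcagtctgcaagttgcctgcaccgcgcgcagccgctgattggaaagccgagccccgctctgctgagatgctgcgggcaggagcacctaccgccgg
Psmb8: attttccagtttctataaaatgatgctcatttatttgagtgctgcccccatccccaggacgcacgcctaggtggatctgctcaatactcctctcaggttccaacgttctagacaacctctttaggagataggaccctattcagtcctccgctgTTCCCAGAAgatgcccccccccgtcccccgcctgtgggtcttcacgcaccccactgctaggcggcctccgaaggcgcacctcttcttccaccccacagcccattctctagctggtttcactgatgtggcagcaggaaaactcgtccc
Psmb5: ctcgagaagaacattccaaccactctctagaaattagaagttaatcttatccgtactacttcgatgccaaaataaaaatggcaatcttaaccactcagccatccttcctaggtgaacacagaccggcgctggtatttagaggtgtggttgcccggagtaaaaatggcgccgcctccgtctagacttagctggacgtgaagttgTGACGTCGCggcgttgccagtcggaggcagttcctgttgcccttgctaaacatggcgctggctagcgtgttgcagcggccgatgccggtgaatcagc
Psmb6: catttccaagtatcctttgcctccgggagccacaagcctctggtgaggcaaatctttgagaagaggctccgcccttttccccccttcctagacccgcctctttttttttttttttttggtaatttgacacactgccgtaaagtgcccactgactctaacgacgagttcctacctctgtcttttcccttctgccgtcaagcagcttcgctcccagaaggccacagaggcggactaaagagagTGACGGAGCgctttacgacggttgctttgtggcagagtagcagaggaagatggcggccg
Psmb8 holds a GAS match 97 bases before its start, and Psmb5 and Psmb6 hold ARE matches 47 and 9 bases before theirs. The Psmb9 window holds none of these letters. In the gene annotation the span of Psmb9 (minus strand) reaches chr17:34187764 and that of Psmb8 (plus strand) starts at chr17:34197721. Both windows thus lie inside the annotated genes, and bases upstream of the windows were not searched. An ISRE match stood 9 bases after the start of Psme1. Such matches are common: the GAS letters occurred in 8.30% of all 32851 RefSeq windows, the ARE letters in 12.4% and the ISRE letters in 3.44%. Counted by gene, as the members are below, the shares of 27025 genes were 9.55% for GAS, 13.99% for ARE and 3.99% for ISRE. Of the 36 member genes with a window, 2 had a GAS match, 6 an ARE match and 4 an ISRE match. The letters CCAAT, searched on both strands and not capitalised, occurred in 13 of the 36, in 37.4% of all windows and in 41.1% of all genes, and stood 8 bases before the start of Psmb9. No matches overlapped each other in the windows of the catalytic and PA28 genes. Psmb9 shares its window with Tap1, which encodes the peptide transporter of the class I pathway and starts 226 bases away on the opposite strand. Their windows have 275 bases in common, chr17:34187306-34187580.

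Among the inducible catalytic genes, Psmb8 and Psmb9 were ordered differently across the 4 libraries. Psmb8 (ENSMUSG00000024338, chr17:34197721-34201454, plus strand) stood at 109.8 CPM in WT ND, 109 in CKO ND, 221 in WT HFD and 249.9 in CKO HFD. Both HFD libraries were high and both normal diet libraries low, with ratios of HFD to normal diet of 2.02 (95% interval 1.93 to 2.11) in WT and 2.30 (2.20 to 2.41) in CKO. Psmb9 (ENSMUSG00000096727, chr17:34181987-34187764, minus strand) stood at 82.6 CPM in WT ND, 80.9 in CKO ND, 65.5 in WT HFD and 102 in CKO HFD. Its lowest library was WT HFD and its highest CKO HFD, while the normal diet libraries lay between them with overlapping intervals. The ratio of CKO to WT under HFD was 1.56 (95% interval 1.49 to 1.63), and that of HFD to normal diet was 0.79 (0.75 to 0.84) in WT and 1.26 (1.19 to 1.34) in CKO. WT HFD also had the most UMIs per cell, and with each cell thinned to 2000 UMIs the log2 ratio of CKO to WT under HFD was 0.61 in place of 0.63. The comparisons between genotypes and between diets share libraries, so a low WT HFD library enters both. Psmb10 (ENSMUSG00000031897, chr8:105935735-105938444, minus strand) stood at 74.1 CPM in WT ND, 76.3 in CKO ND, 101 in WT HFD and 122 in CKO HFD. Its ratios were 1.36 (1.29 to 1.44) for HFD over normal diet in WT, 1.596 (1.51 to 1.69) in CKO and 1.21 (1.16 to 1.25) for CKO over WT under HFD. Psmb9 overlaps Tap1 in the annotation, Psmb8 overlaps Gm20496 and Psmb10 overlaps Gm16156, and the sources used here do not give whether the counting used strand. If it did not, their UMIs cannot be told apart.

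The 3 constitutive catalytic genes were all higher under HFD, 2 of them by over 1.5-fold in both genotypes. Psmb5 (ENSMUSG00000022193, chr14:54614119-54618022, minus strand) stood at 75.2 CPM in WT ND, 79.7 in CKO ND, 161 in WT HFD and 204 in CKO HFD. Psmb6 (ENSMUSG00000018286, chr11:70525367-70527858, plus strand) stood at 99.6 CPM in WT ND, 104 in CKO ND, 213 in WT HFD and 239 in CKO HFD. For both, the HFD libraries were at least 2.14 times the normal diet library of the same genotype, and Psmb5 reached 2.56 (95% interval 2.43 to 2.70) in CKO. Psmb7 (ENSMUSG00000026750, chr2:38588036-38644087, minus strand) stood at 64.9 CPM in WT ND, 64.9 in CKO ND, 91.9 in WT HFD and 89.8 in CKO HFD, with HFD over normal diet at 1.42 (1.33 to 1.51) in WT and 1.38 (1.30 to 1.47) in CKO. Under the normal diet the interval of CKO over WT included 1 for each of the 6 catalytic genes, with ratios between 0.98 (Psmb9) and 1.06 (Psmb5).

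**Figure D1:**
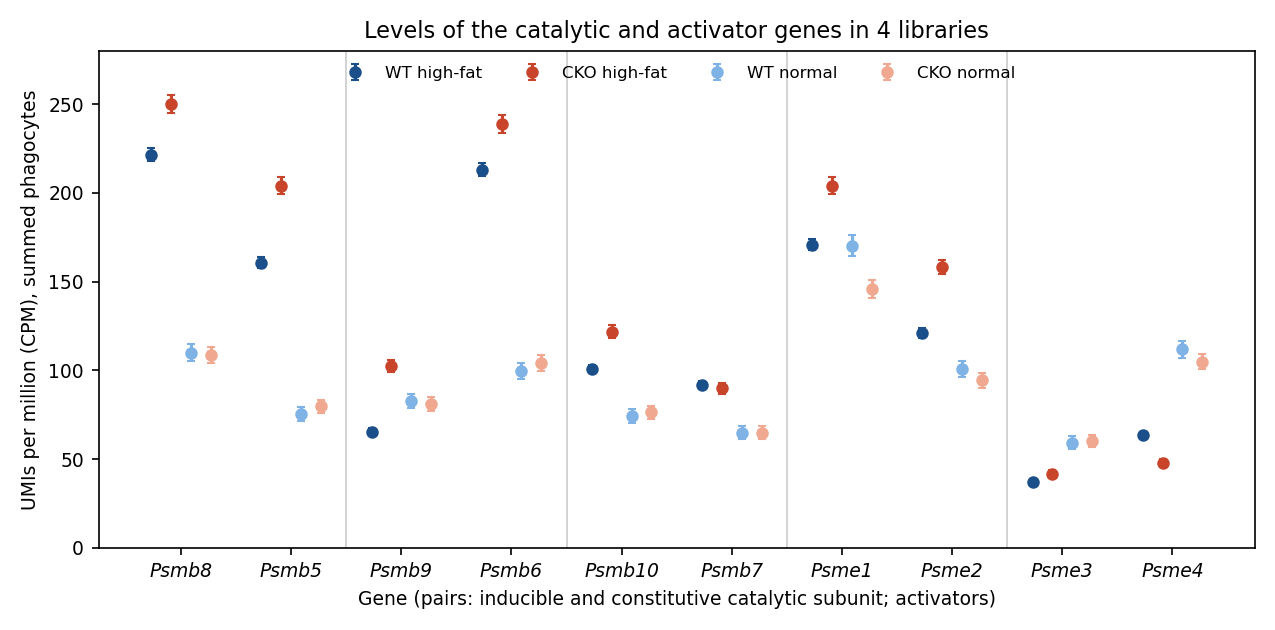
Level of each gene in CPM (y axis, linear from 0) over the summed phagocytes of the 4 libraries, with genes on the x axis paired as inducible and constitutive catalytic subunit, then the activators. Points are single libraries and bars exact Poisson 95% intervals. Psmb8, Psmb5 and Psmb6 separate HFD from the normal diet, Psmb9 does not, and Psme3 and Psme4 run the other way.

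UMIs from a 3′ assay are not scaled by transcript length, and a share within a library does not depend on how libraries are scaled, so shares were compared across libraries. Psmb8, Psmb9 and Psmb10 together made up 52.7% (51.6 to 53.7%) in WT ND, 51.7% (50.7 to 52.6%) in CKO ND, 45.4% (45.03 to 45.8%) in WT HFD and 47.1% (46.6 to 47.6%) in CKO HFD of the UMIs of Psmb5 to Psmb10. The normal diet libraries were above both HFD libraries, and their own intervals overlapped. Within pairs, the Psmb9 share differed most between libraries. Psmb9 was 45.3% (43.7 to 47.0%) in WT ND, 43.8% (42.2 to 45.3%) in CKO ND, 23.5% (22.9 to 24.1%) in WT HFD and 29.97% (29.2 to 30.8%) in CKO HFD of Psmb9 and Psmb6 together. Both HFD values were low, and WT HFD was the lowest. Psmb8 made up 59.4% in WT ND, 57.7% in CKO ND, 58.0% in WT HFD and 55.0% in CKO HFD of its pair with Psmb5, and Psmb10 53.3% in WT ND, 54.0% in CKO ND, 52.3% in WT HFD and 57.6% in CKO HFD of its pair with Psmb7. Those 2 shares stayed within 52.3% to 59.4% in all 4 libraries.

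**Figure D2:**
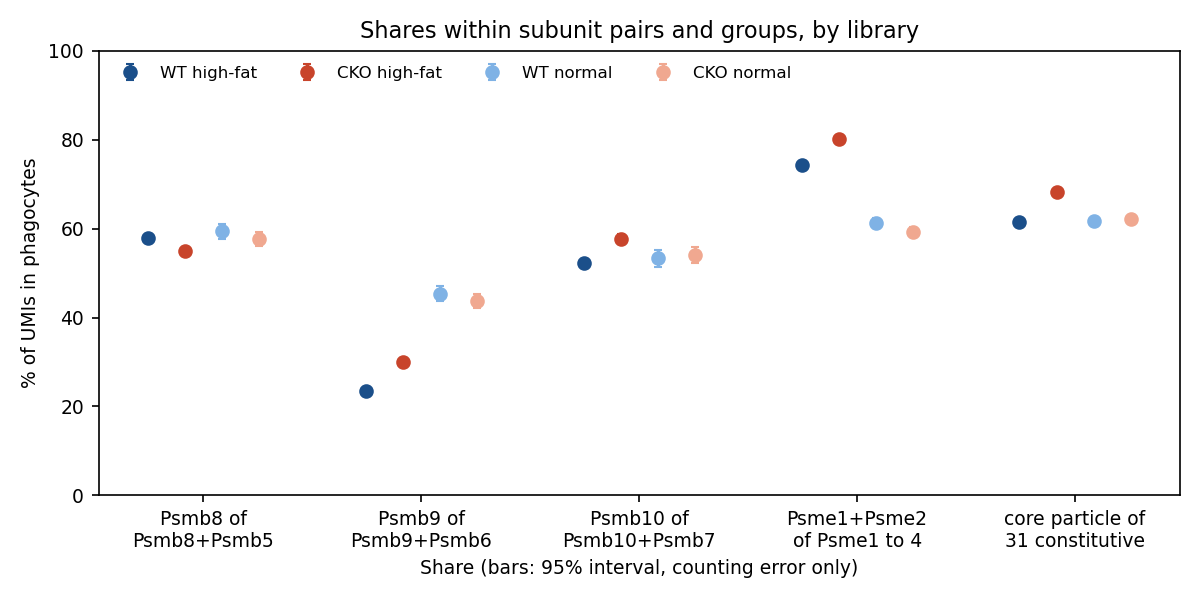
Share of UMIs (y axis, percent, from 0 to 100) held by the inducible gene of each catalytic pair, by Psme1 and Psme2 among the 4 Psme activator genes, and by the core particle among the 31 constitutive members, in each library. Bars are exact Clopper-Pearson 95% intervals; the Psmb9 share is lower in both HFD libraries, the Psme1 and Psme2 share is higher in them, and the core share is higher in CKO HFD than in the other 3.

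The PA28 genes were highest in CKO HFD. Psme1 (ENSMUSG00000022216, chr14:55578123-55581529, plus strand) stood at 170.1 CPM in WT ND, 146 in CKO ND, 171 in WT HFD and 204 in CKO HFD. Its ratio of HFD to normal diet was 1.00 (95% interval 0.96 to 1.04) in WT and 1.40 (1.34 to 1.46) in CKO. Psme2 (ENSMUSG00000079197, chr14:55587441-55591113, minus strand) stood at 101 CPM in WT ND, 94.3 in CKO ND, 121 in WT HFD and 158 in CKO HFD, with HFD over normal diet at 1.202 (1.14 to 1.26) and 1.68 (1.59 to 1.76). CKO over WT under HFD was 1.196 (1.16 to 1.23) for Psme1 and 1.31 (1.26 to 1.35) for Psme2. Under the normal diet the order was turned, at 0.86 (0.82 to 0.90) and 0.94 (0.88 to 1.00). The nuclear caps ran the other way between diets. Psme3 (ENSMUSG00000078652, chr11:101316213-101323537, plus strand) stood at 59.2 CPM in WT ND, 60.2 in CKO ND, 37.3 in WT HFD and 41.6 in CKO HFD, and Psme4 (ENSMUSG00000040850, chr11:30771726-30880361, plus strand) at 112 CPM in WT ND, 105 in CKO ND, 63.6 in WT HFD and 47.7 in CKO HFD. Both normal diet libraries were above both HFD libraries for each, and the ratios of HFD to normal diet were 0.63 (0.59 to 0.68) and 0.69 (0.64 to 0.75) for Psme3 and 0.57 (0.54 to 0.60) and 0.46 (0.43 to 0.49) for Psme4, in WT and CKO. Psme1 and Psme2 held 61.3% (60.2 to 62.3%) in WT ND, 59.3% (58.2 to 60.3%) in CKO ND, 74.3% (73.8 to 74.8%) in WT HFD and 80.2% (79.6 to 80.8%) in CKO HFD of the UMIs of the 4 activator genes. Psme1 overlaps Emc9 on the other strand.

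Psme4 is one of the longest members. Ratios of all genes moved with the length of the gene in the annotation: for CKO over WT under HFD the median log2 ratio went from 0.11 in the fifth of genes with the shortest spans to -0.64 in the fifth with the longest, and for HFD over normal diet in CKO from 0.30 to -1.17. Under the normal diet CKO over WT ran from 0.02 to 0.05. The immunoproteasome genes span 2.71 to 5.78 kb (median 3.67 kb) and the constitutive members 2.49 to 88.7 kb (median 13.3 kb). With that trend removed, the log2 ratio of Psme4 for HFD over normal diet went from -0.81 to -0.37 in WT and from -1.12 to -0.054 in CKO. The short gene Psme3 went from -0.65 to -0.78 and from -0.52 to -0.65. The inducible genes, which are short, went down with the correction. For HFD over normal diet in CKO, Psmb8 went from 1.19 to 0.83, Psmb9 from 0.33 to 0.12, Psmb10 from 0.67 to 0.21, Psme1 from 0.48 to 0.090 and Psme2 from 0.74 to 0.37, so that Psmb10 and Psme2 were no longer past 1.5-fold. In WT, Psme1 went from 0.0048 to -0.23, Psme2 from 0.26 to 0.034, Psmb8 from 1.00 to 0.78 and Psmb9 from -0.33 to -0.51. CKO over WT under HFD went from 0.63 to 0.56 for Psmb9, just under 1.5-fold, from 0.17 to 0.014 for Psmb8, from 0.27 to 0.039 for Psmb10, from 0.26 to 0.076 for Psme1 and from 0.38 to 0.22 for Psme2. What makes the ratios follow gene length was not tested, and the sources used here do not give whether intron reads were counted.

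Under HFD, CKO and WT differed in the balance between core and regulatory genes among the constitutive members, which leave out the lid subunit Sem1 (below). A member counts as higher or lower here when its ratio of (CPM + 1) passes 1.5-fold and either library reaches 10 CPM. Of the 42 members, 1 was higher (Psmb9), where 5.33% of 7810 genes were, and 2 were lower (the lid subunit Psmd12 and Psme2b), where 19.2% were. Without the lipid-associated-like cluster described below none was higher and 1 was lower, and Psmb9 had a log2 ratio of 0.55, just under that fold. The share of all genes is not given for that setting. The median gene had a log2 ratio of -0.21, so list medians are also given relative to it. Core genes lay above the median gene: the 7 alpha genes had a median log2 ratio of 0.16 (0.37 relative), the 4 structural beta genes 0.30 (0.51) and the 3 constitutive catalytic genes 0.16 (0.38). The immunoproteasome genes lay at 0.27 (0.48). Regulatory particle genes lay near the median gene, with -0.27 (-0.055) for the 6 ATPases, -0.29 (-0.076) for the other 3 base genes and -0.28 (-0.063) for the 8 lid genes. Of the 14 core genes 11 had a ratio over 1, against 1 of the 17 regulatory genes, the ATPase Psmc1, and 29.1% of all genes. With TMM scaling, which sets most genes equal, the median of the regulatory genes was -0.080 and ratios over 1 were found in 13 of 14 core genes, 8 of 17 regulatory genes and 50.1% of all genes. Under that scaling 4 members were over 1.5-fold higher, where 9.91% of genes were, and none lower, where 9.69% were.

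The share of constitutive UMIs that came from the core particle was 61.8% (61.4 to 62.2%) in WT ND, 62.1% (61.7 to 62.4%) in CKO ND, 61.6% (61.4 to 61.7%) in WT HFD and 68.3% (68.1 to 68.6%) in CKO HFD. It was higher in CKO HFD than in the other libraries, which lay within 1 percentage point of each other. Sem1, a lid subunit whose symbol lacks the prefixes, is not counted in this share. Its level, given below, was lower in WT HFD than in CKO HFD, where the 31 members summed to 4095 and 4137 CPM. Counted on the regulatory side, Sem1 would turn the order of WT HFD and CKO HFD. The order is therefore stated for the 31 members alone. Leading examples were the structural beta genes Psmb2, at 117, 119, 152 and 211 CPM in the order WT ND, CKO ND, WT HFD and CKO HFD, and Psmb3, at 159, 168, 164 and 223 CPM. CKO over WT under HFD was 1.39 (1.35 to 1.43) for Psmb2 and 1.36 (1.32 to 1.40) for Psmb3. At the other end stood Psmd12 at 44.3, 41.2, 76.6 and 48.0 CPM and the lid subunit Psmd7 at 51.6, 54.9, 95.01 and 64.0 CPM, with CKO over WT under HFD at 0.63 (0.59 to 0.66) and 0.67 (0.64 to 0.71). For both lid genes WT HFD was the high library and the other 3 were lower. Psma4 was the lowest of the alpha genes at 0.75 (0.73 to 0.78), while the other 6 had ratios from 0.98 (Psma1) to 1.25 (Psma2). Across the 31 constitutive members the median log2 ratio was -0.13, which became 0.075 under TMM scaling and -0.055 with the gene-length trend removed. Immunoproteasome genes exceeded them by 0.40 in the median, and by 0.13 with the trend removed.

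**Figure D3:**
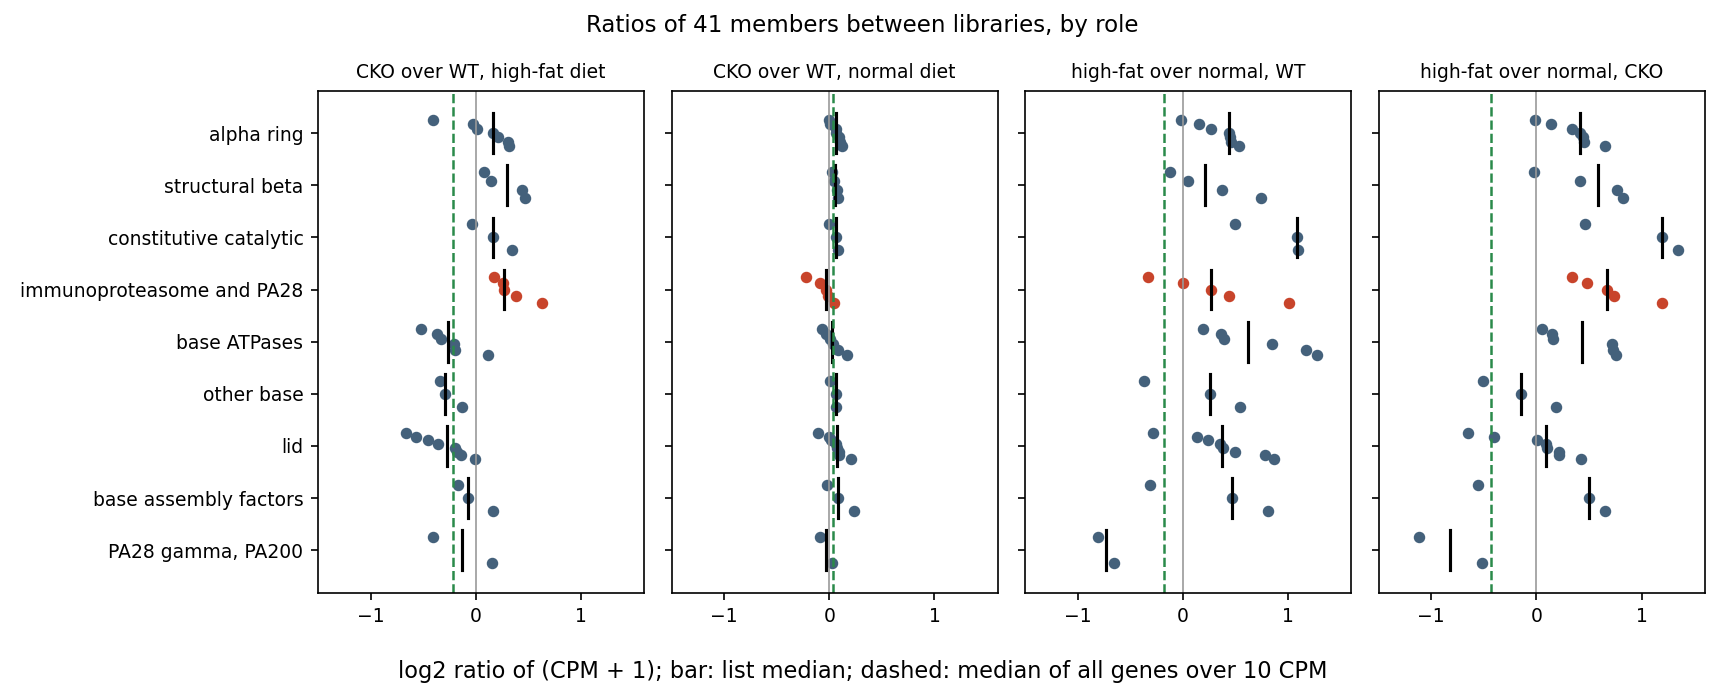
Log2 ratio of (CPM + 1) for 41 members (x axis) in the 4 comparisons, grouped by role on the y axis, where each point is 1 gene. Black bars are list medians and the dashed line is the median of all genes over 10 CPM; in CKO over WT under HFD core genes lie right of the regulatory genes, under the normal diet all points lie near 0, and between diets Psmb5, Psmb6 and Psmb8 lie right in both genotypes, with Psmc2 and Psmc4 farthest right in WT, while Psme3 and Psme4 lie left.

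Under the normal diet CKO and WT were close. None of the 42 members passed 1.5-fold in either direction, where 0.370% of 8099 genes were higher and 0.494% lower. The largest ratios were 1.19 (1.02 to 1.38) for the base assembly factor Psmd10, 1.15 (1.08 to 1.24) for the lid gene Psmd13 and 1.12 (1.03 to 1.22) for Psmc1. The smallest was that of Psme1 (above), followed by 0.93 (0.84 to 1.02) for Psmd12 and 0.94 (0.88 to 0.99) for Psme4. The constitutive median was 0.063 and the immunoproteasome median -0.029, beside 0.034 for all genes. Whether the genotype ratio differed between diets was not tested, as each diet has 1 library per genotype.

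Between diets, constitutive genes were above the median gene in both genotypes. In WT, 10 of 42 members were higher under HFD, where 11.7% of 8274 genes were, and 2 were lower (Psme3 and Psme4), where 23.6% were. In CKO, 12 were higher, where 10.8% of 8199 genes were, and 3 were lower (Psme4, Psme2b and the lid gene Psmd11), where 42.0% were. With TMM scaling 19 were higher and 1 lower in WT, where 18.2% and 14.4% of genes were, and 26 higher and 2 lower in CKO, where 23.5% and 21.4% were. These 2 comparisons share no library. In both, 7 members were higher: Psmb1, Psmb5, Psmb6, Psmb8 and the ATPases Psmc2, Psmc4 and Psmc5. That is 70.0% of the WT list and 58.3% of the CKO list, while over all genes the overlap was 51.1% and 56.2% of the lists. The largest ratios in WT were those of the ATPases Psmc2, at 32.1, 32.9, 79.3 and 55.0 CPM in the order above, and Psmc4, at 31.3, 33.3, 71.9 and 56.8 CPM. HFD over normal diet was 2.47 (2.27 to 2.69) and 2.30 (2.11 to 2.50) in WT, and 1.67 (1.53 to 1.83) and 1.71 (1.57 to 1.86) in CKO. WT HFD was the highest library for both genes. Psmd11, at 93.1, 94.1, 76.3 and 59.5 CPM, was lower under HFD, by a ratio of 0.63 (0.59 to 0.67) in CKO and 0.82 (0.78 to 0.87) in WT.

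The structural genes of the core were uneven between diets. Psmb1 stood at 138, 145, 233 and 247 CPM and Psmb2 at 117, 119, 152 and 211 CPM in the order WT ND, CKO ND, WT HFD and CKO HFD, while Psmb4 had ratios of HFD to ND of 0.92 in WT and 0.99 in CKO. In the alpha ring the ratios ran from 0.99 (Psma7) to 1.45 (Psma3) in WT and from 0.99 (Psma4) to 1.57 (Psma2) in CKO. Psma2 stood at 135, 146, 184 and 230.3 CPM, Psma4 at 165, 173, 226 and 171 CPM and Psma7 at 344, 359, 341 and 395 CPM. Psma4 was high in WT HFD alone, and Psma2 was highest in CKO HFD. Among the base genes, the scaffold subunit Psmd2 was lower under HFD, at 0.77 (0.74 to 0.81) in WT and 0.70 (0.66 to 0.74) in CKO, whereas the ubiquitin receptor Psmd4 had 1.46 (1.38 to 1.55) and 1.14 (1.07 to 1.21). The ATPase Psmc5 stood at 55.0, 52.1, 99.4 and 86.3 CPM. Psmd14, which removes ubiquitin from substrates, stood at 91.8, 97.9, 101 and 73.7 CPM and was lowest in CKO HFD. It has the longest span of the constitutive members, and its direction turned with the gene-length trend removed. The log2 ratio went from -0.45 to 0.056 for CKO over WT under HFD. For HFD over normal diet in CKO it went from -0.41 to 0.56.

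The median log2 ratio of the 31 constitutive members for HFD over normal diet was 0.39 in WT and 0.22 in CKO, where the median gene had -0.18 and -0.44. By role, constitutive catalytic genes stood highest, at 1.09 and 1.19. The ATPases followed in WT at 0.62 (0.43 in CKO), and the lid lay at 0.37 and 0.092. Immunoproteasome genes lay at 0.26 in WT and 0.67 in CKO. The median of immunoproteasome genes was thus 0.13 below that of the constitutive members in WT and 0.45 above it in CKO. With the gene-length trend removed it was 0.43 and 0.24 below, so the direction in CKO turned with that choice. Genes of dissociation and heat shock moved with the diet too. Summed, the 11 listed stood at 6161 CPM in WT ND, 6189 in CKO ND, 8332 in WT HFD and 8257 in CKO HFD. In this list 6 of 11 were higher and none lower under HFD in WT, where 11.7% and 23.6% of all genes were, and 2 were higher and 1 lower in CKO, where 10.8% and 42.0% were. Its most abundant genes had ratios of 1.19 and 1.18 (Fos), 1.89 and 1.28 (Hspa8) and 0.81 and 1.36 (Egr1) in WT and CKO, and Atf3 and Hspa1a were higher in both. Their part in the result was not tested.

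All ratios so far come from pooled phagocytes, in which a different mix of cells and a different level per cell cannot be told apart. Clustering with all 45 symbols left out of the clustering genes gave 22 clusters, of which 16 held at least 100 cells in 1 library or more, for 30 profiles of a cluster in a library. Cluster names come from marker genes and are rebuilt here. The inducible share of catalytic UMIs lay between 45 and 65% in 24 of the 28 profiles outside cluster 8, whose cells were shallow. The lowest values were in the lipid-associated-like cluster (led by Gpnmb, Atp6v0d2, Fabp5 and Trem2), at 33.2% (32.5 to 33.9%) in WT HFD and 31.6% (30.5 to 32.7%) in CKO HFD. This cluster had the highest Psmb6, 365 and 457 CPM, and Psmb9 there was 44.9 and 74.1 CPM. An unnamed cluster of CKO HFD led by Arg1, Ccl17 and Ccl24 came next, at 40.96% (38.3 to 43.7%). Among the 30 profiles, the highest share was 70.6% (68.2 to 72.9%), in the interferon-responding-like cluster of CKO HFD (166 cells, led by Cxcl9, Isg15 and Rsad2). There Psmb8 stood at 580.3, Psmb9 at 284 and Psmb10 at 336 CPM. At a clustering resolution of 0.5 this cluster held 158 cells of CKO HFD with a share of 70.5%. It had 78 such cells at a resolution of 2 and 72 with the 45 symbols among the clustering genes, and no cluster of that name formed when class I and interferon genes were left out too.

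Monocyte-like and type 2 dendritic-like profiles stood between. Other dendritic clusters had under 100 cells in each library and were pooled over libraries. The type 1 dendritic-like cluster (107 cells) then had 79.0% (77.3 to 80.7%) and the migratory one (74 cells) 69.5% (65.3 to 73.4%). Pooled in the same way, the interferon-responding-like cluster had 72.7% (71.0 to 74.4%). The classical monocyte-like cluster had 56.9% (55.5 to 58.3%) in WT HFD, 60.7% (56.1 to 65.2%) in WT ND and 60.1% (54.5 to 65.4%) in CKO ND. In the non-classical monocyte-like cluster the share was 61.8% (57.4 to 66.2%) in WT ND and 62.4% (57.6 to 67.0%) in CKO ND, and in the type 2 dendritic-like cluster 62.7% (58.9 to 66.4%) and 61.1% (57.2 to 64.8%). Resident-like clusters lay lower, at 52.6% (50.9 to 54.4%) in WT HFD (cluster 6) and at 47.3% (45.6 to 49.0%) and 50.1% (49.1 to 51.2%) in CKO HFD (clusters 9 and 14). These are different clusters in the 2 libraries. Dividing cells, the only cluster with 100 cells in all 4 libraries, had 52.7% (49.9 to 55.4%) in WT ND, 52.7% (50.5 to 54.9%) in CKO ND, 47.8% (46.7 to 48.8%) in WT HFD and 50.7% (49.2 to 52.3%) in CKO HFD. The lipid-associated-like cluster held 958 and 860 phagocytes of WT HFD and CKO HFD but 86 and 48 under the normal diet. Without it, a choice made after seeing the data, the share of all phagocytes was 53.9% in WT ND, 52.3% in CKO ND, 51.2% in WT HFD and 50.8% in CKO HFD.

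**Figure D4:**
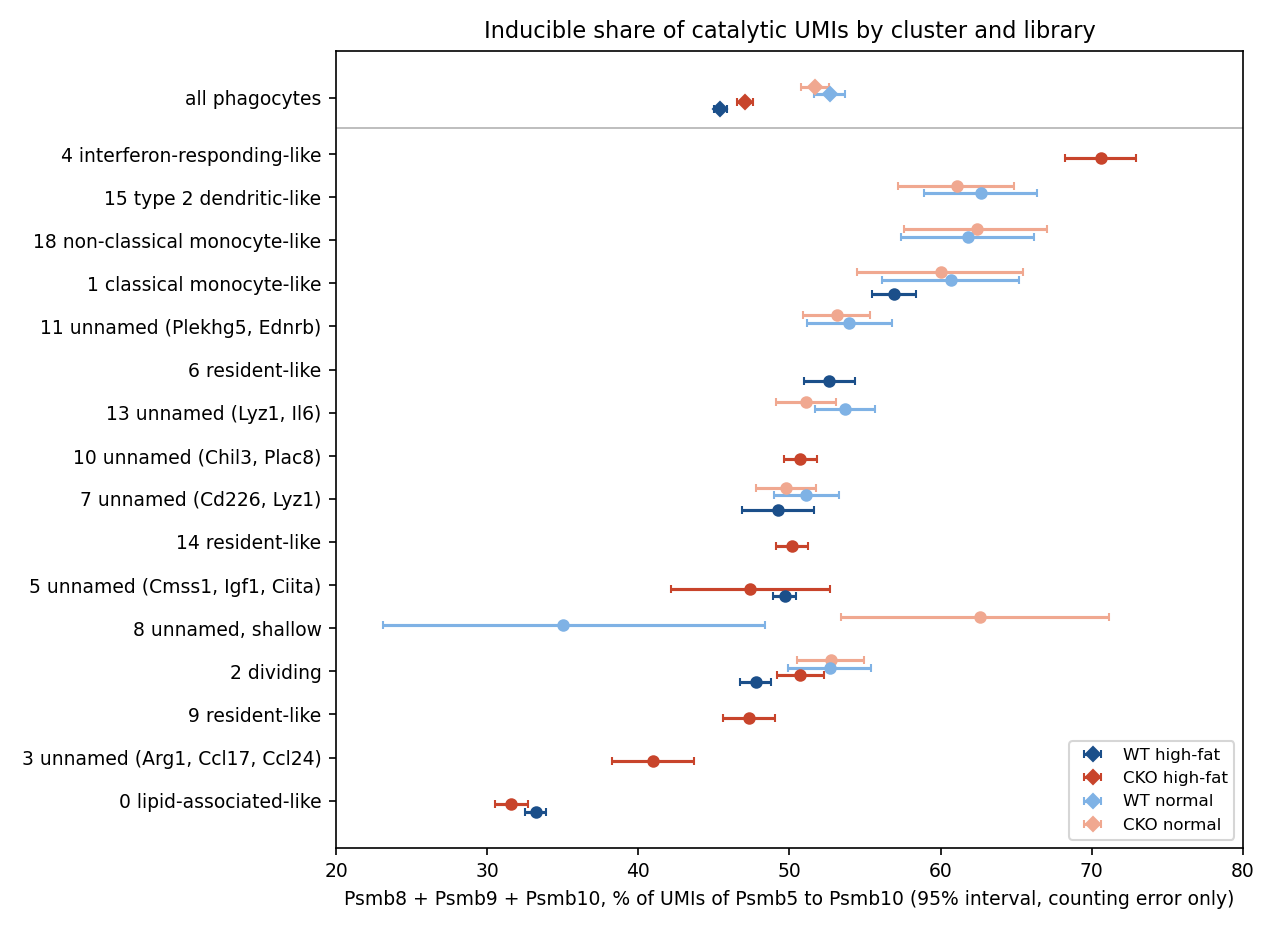
Share of Psmb8, Psmb9 and Psmb10 in the UMIs of the 6 catalytic genes (x axis, percent, from 20 to 80) for each cluster with at least 100 cells in a library (y axis), with all phagocytes as diamonds at the top. Bars are exact Clopper-Pearson 95% intervals; the lipid-associated-like cluster lies lowest and the interferon-responding-like cluster highest, and cluster 8 has wide intervals because its 2 profiles hold 60 and 123 catalytic UMIs.

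Within clusters that 2 libraries filled, Psmb9 ratios had the direction of the pooled ones for CKO over WT under HFD and between diets. For CKO over WT under HFD, Psmb9 was 1.65 (1.46 to 1.86) in the lipid-associated-like cluster, 1.64 (1.48 to 1.81) in dividing cells and 1.65 (1.22 to 2.18) in cluster 5, an unnamed cluster led by Cmss1, Igf1 and Ciita. For HFD over normal diet in WT it was 0.69 (0.54 to 0.88) in the classical monocyte-like cluster, 0.69 (0.61 to 0.79) in dividing cells and 0.68 (0.53 to 0.85) in cluster 7, an unnamed cluster led by Cd226 and Lyz1. In CKO, where dividing cells alone can be compared, it was 1.33 (1.17 to 1.51). Under the normal diet the genotype ratio, 0.98 in pooled cells, lay on either side of 1, from 0.86 (0.73 to 1.00) in dividing cells to 1.19 (1.00 to 1.41) in cluster 11, and was 4.30 (1.49 to 16.97) in shallow cluster 8. Psmb8 was higher under HFD in the same comparisons, at 2.18 (1.80 to 2.65), 1.86 (1.64 to 2.12) and 1.65 (1.46 to 1.87) in WT and 1.93 (1.73 to 2.16) in CKO dividing cells. Psmb5 and Psmb6 were also higher within these clusters, Psmb5 by 1.96 (1.51 to 2.59), 1.79 (1.53 to 2.10) and 1.61 (1.38 to 1.87) in WT and Psmb6 by 1.75 (1.37 to 2.26), 1.59 (1.40 to 1.82) and 1.25 (1.07 to 1.45). Under HFD, the ratio of CKO to WT for Psmb8 was 1.12 (1.05 to 1.2004) and 1.12 (1.04 to 1.205) in the lipid-associated-like cluster and dividing cells but 0.67 (0.52 to 0.85) in cluster 5, where Psme1 was 0.79 (0.61 to 1.00) and CKO HFD held 112 cells.

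Within pairs, the Psmb9 share varied most between clusters. It was 10.95% in WT HFD and 13.95% in CKO HFD for the lipid-associated-like cluster and 16.5% for the Arg1 cluster. Among profiles of at least 100 cells it reached 58.1% in the interferon-responding-like cluster and 63.6% in the non-classical monocyte-like cluster of CKO ND. Pooled over libraries, the Psmb9 share of the smaller type 1 dendritic-like cluster was 76.8%. In dividing cells the Psmb9 share was 53.7% in WT ND, 50.4% in CKO ND, 33.6% in WT HFD and 43.0% in CKO HFD, which is the order in the pooled phagocytes. The Psmb10 share of dividing cells was low in every library, from 40.3% (WT ND) to 47.2% (CKO ND).

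The activators were spread over the clusters in their own way. Among profiles of at least 100 cells, Psme2 was highest in the interferon-responding-like cluster at 362 CPM. Next came the Arg1 cluster at 227 CPM and cluster 10 of CKO HFD, led by Chil3 and Plac8, at 193 CPM. Psme1 had the same 3 profiles at the top, at 339, 254 and 241 CPM. Pooled over libraries, the small type 1 and migratory dendritic-like clusters had Psme1 at 677 and 489 CPM and Psme2 at 282 and 433 CPM. The pooled interferon-responding-like cluster had Psme1 at 364 and Psme2 at 319 CPM. The Arg1 cluster thus combined high PA28 with a low Psmb9 share. Psme4, again among profiles of at least 100 cells, was highest in the classical monocyte-like cluster of WT ND (162 CPM). Cluster 11 of WT ND (153 CPM) and of CKO ND (151 CPM) followed, and the lipid-associated-like cluster of CKO HFD was lowest (37.2 CPM). For HFD over ND, Psme4 was 0.48 (0.39 to 0.59) in the classical monocyte-like cluster and 0.68 (0.57 to 0.82) in dividing cells of WT, but 1.01 (0.84 to 1.201) in cluster 7. Psme3 was 0.62 (0.51 to 0.76) in dividing cells of WT and 0.65 (0.53 to 0.79) in those of CKO.

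Counts of members in these clusters were read against all genes in the same way. For CKO over WT under HFD, 2 of 41 members were higher and 3 lower in the lipid-associated-like cluster (background 5.92% and 26.6%). Dividing cells gave 1 higher and 3 lower of 42 (4.72% and 16.4%). Cluster 5 is left out of these counts, as the share of all genes is not given for it. For HFD over normal diet in WT, 16 of 42 were higher and 1 lower in the classical monocyte-like cluster (13.8% and 23.9%), 10 and 1 in dividing cells (13.9% and 16.6%) and 6 and 0 in cluster 7 (8.05% and 10.4%). In CKO dividing cells 5 were higher and 5 lower (10.2% and 31.1%). For CKO over WT under ND, 1 of 42 was higher and none lower both in dividing cells (3.89% and 2.03%) and in cluster 7 (1.78% and 1.03%). None passed in cluster 11, led by Plekhg5 and Ednrb (1.83% and 1.71%), or in cluster 13, led by Lyz1 and Il6 (0.959% and 0.795%). The classical monocyte-like cluster gave 3 higher and 2 lower (10.8% and 10.6%), the non-classical one 1 and 2 (6.02% and 9.83%) and the type 2 dendritic-like cluster 0 and 2 (7.08% and 6.43%). Shallow cluster 8 gave 10 and 2, where 24.6% and 18.2% of all genes passed. The core share of constitutive UMIs was 62.1% in WT HFD and 70.9% in CKO HFD for the lipid-associated-like cluster, and 60.5% and 67.2% for dividing cells. In cluster 5 it was 61.3% and 62.0%.

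Across cell clusters, Psmb9 and its counterpart Psmb6 each covered a wide range. Over the 28 profiles outside cluster 8, Psmb9 ran from 44.9 to 284 CPM and Psmb6 from 47.7 to 457 CPM. Over all 30 profiles, which share libraries and their depth, the summed immunoproteasome genes and the summed constitutive members had a correlation of log2 CPM of 0.66. Psmb9 had 0.49 with the other immunoproteasome genes and 0.13 with the constitutive sum, while Psmb8 had 0.85 and 0.70. Outside the members, the genes most like the summed immunoproteasome genes, among 3202 genes of at least 50 CPM, were Rps19 (Pearson 0.85), Tmem167, Rpl19, Rpl18, Rpl24, Bax, Rpl8, Edf1, Timm10b and Cox8a (0.82). B2m came 793rd and Tap1 828th (0.22 and 0.19).

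**Figure D5:**
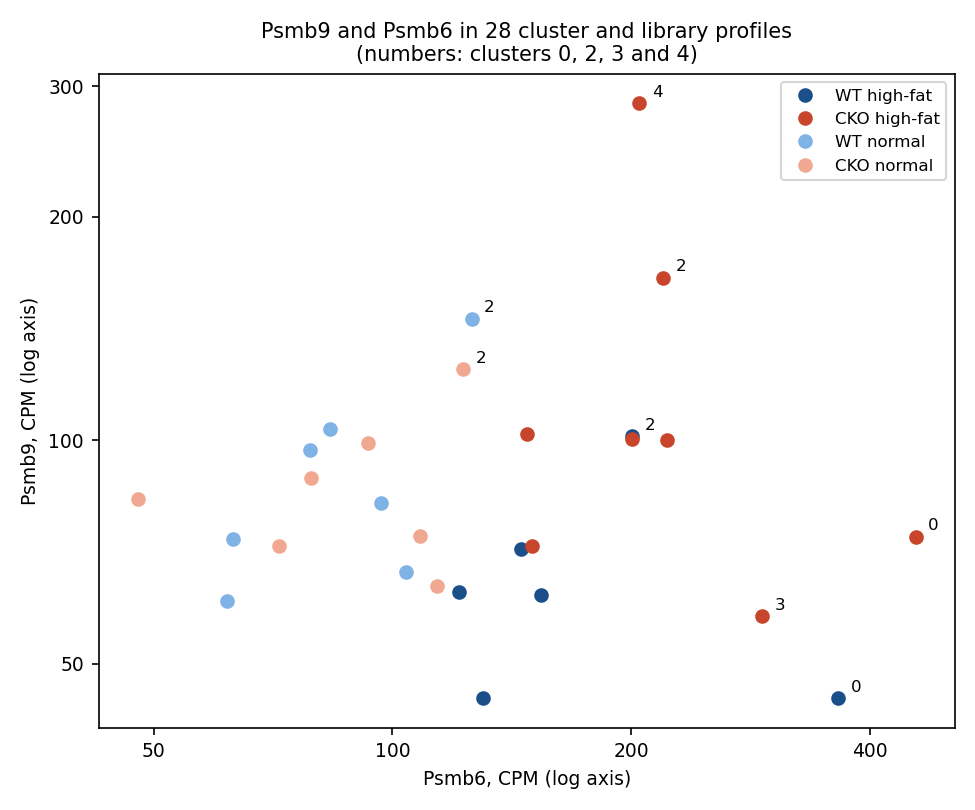
Psmb9 against Psmb6 in CPM, both on log axes, in 28 profiles of a cluster in a library with at least 100 cells, coloured by library. The lipid-associated-like cluster (0) lies far right, with Psmb9 lowest of all in WT HFD (44.9 CPM) but not in CKO HFD (74.1 CPM). The interferon-responding-like cluster (4) lies at the top, and the dividing cluster (2) above most others.

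Other genes of antigen presentation did not all follow the immunoproteasome genes between diets. Values of genes outside the members, here and below, are given without removal of the gene-length trend. For HFD over normal diet, the fifth of all genes with the longest spans had a median log2 ratio of -0.47 in WT and -1.17 in CKO. Of the class I presentation list, whose products load and carry the peptides that proteasomes make, 1 of 16 measured genes was higher (the chaperone Calr) and 6 lower in WT under HFD, and 2 were higher and 3 lower in CKO. These stand beside 11.7% and 23.6% of all genes in WT and 10.8% and 42.0% in CKO. The median log2 ratio of the list was -0.29 and -0.28, or -0.10 and 0.16 with TMM scaling, so its direction in CKO turned with the scaling. Tap1 stood at 58.6 CPM in WT ND, 59.3 in CKO ND, 33.9 in WT HFD and 39.8 in CKO HFD. Its ratio of HFD to normal diet was 0.58 (0.54 to 0.62) in WT and 0.67 (0.62 to 0.73) in CKO, beside 0.79 and 1.26 for Psmb9, with which it shares a promoter window. The transporter subunit Tap2 (0.40 and 0.56), the class I gene H2-Q6 (0.21 and 0.45) and the class I activator Nlrc5 (0.60 and 0.55) were lower in both genotypes. The most abundant of the list were less uniform: H2-D1 had 1.34 and 1.57, B2m 0.86 and 1.25, and H2-K1 0.55 and 0.86. For CKO over WT under HFD, B2m had 1.44 (1.42 to 1.46) and H2-K1 1.49 (1.47 to 1.51). Of 15 measured genes none was over 1.5-fold higher and 1 lower (Calr), where 5.33% and 19.2% of all genes were.

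In the interferon gamma list, 10 of 18 measured genes were lower and 1 higher under HFD in WT, and 7 of 19 lower and 1 higher in CKO, beside 23.6% lower and 11.7% higher of all genes in WT and 42.0% and 10.8% in CKO. Its median log2 ratio was -0.72 and -0.53, or -0.54 and -0.12 with TMM scaling. The kinase Jak2, which carries the signal, was lower in both genotypes, as were the effectors Gbp3, Gbp7 and Iigp1. Both Cxcl9, a chemokine, and Gbp2, a GTPase, were lowest in WT HFD, as Psmb9 was. Cxcl9 stood at 45.1, 18.4, 5.52 and 33.3 CPM and Gbp2 at 52.5, 33.2, 6.73 and 24.3 CPM in the order WT ND, CKO ND, WT HFD and CKO HFD. Between genotypes under HFD, 3 of 17 genes of the list were higher in CKO (Cxcl9, Gbp2 and Socs1) and 2 lower (Irf2 and Ciita), where 5.33% and 19.2% of all genes were. Cxcl9 and Gbp2 were lower in CKO under the normal diet. Ciita, the class II activator, was highest in WT HFD, at 64.5, 60.9, 131 and 68.5 CPM in that order. Ifngr1 (299.7, 287, 204 and 224 CPM), Jak1 (340.1, 363, 238 and 159 CPM) and Irf2 (186, 194, 180.5 and 115 CPM) were the most abundant of the list. Of the type I interferon list, 5 of 11 were lower and 1 higher (Oas1a) under HFD in WT, and 3 and 3 in CKO, beside the same shares of all genes. Between genotypes under HFD 3 of 10 were higher in CKO and 1 lower (Oas1a), where 5.33% and 19.2% of all genes were. Bst2 stood at 109, 116, 122 and 213 CPM, Isg15 at 23.4, 20.7, 23.2 and 40.3 CPM and Cxcl10 at 73.7, 63.4, 13.6 and 31.8 CPM, and these were the 3 higher ones. The 12 markers of interferon-responding cells summed to 210.4 CPM in WT ND, 167 in CKO ND, 89.6 in WT HFD and 169 in CKO HFD. Without the interferon-responding-like and classical monocyte-like clusters, the log2 ratio of Psmb9 for CKO over WT under HFD was 0.62, beside 0.63 in all phagocytes.

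Nfe2l1 drives proteasome genes when the protease is inhibited, and stood at 74.5, 72.4, 57.9 and 59.5 CPM in the order above. Nfe2l2, the antioxidant regulator, stood at 397, 371, 338 and 177 CPM and was lowest in CKO HFD, with CKO over WT at 0.52 (0.51 to 0.54). It was the 1 gene of 7 in its list past 1.5-fold in that comparison, where 19.2% of all genes were lower. Vcp, which extracts tagged proteins, stood at 240.4, 239, 237 and 182 CPM, and Sqstm1, which carries them to autophagy, at 209.6, 180.0, 166 and 124 CPM. Among 20 assembly factors and partners, 2 were higher and 1 lower in CKO under HFD, where 5.33% and 19.2% of all genes were. Sem1, a small lid subunit whose symbol lacks the prefix, stood at 1297 CPM in WT ND, 1266 in CKO ND, 657 in WT HFD and 1366 in CKO HFD. Sem1 was thus low in WT HFD alone. It was not counted in the core share above, where it would add to the regulatory side, less in WT HFD than in CKO HFD. Pomp, the maturation factor of the core, stood at 283, 273, 289.8 and 411 CPM and was highest in CKO HFD, and Zfand5 at 433, 444, 391 and 411 CPM.

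The remaining members were the rarest. Psmd10 stood at 16.2, 19.2, 29.0 and 27.6 CPM, Psmd9 at 19.1, 18.8, 26.7 and 29.98 CPM and Psmd5 at 22.5, 23.8, 17.9 and 15.8 CPM. Psmd10 and Psmd9 were higher in both HFD libraries and Psmd5 lower, and Psmd9 overlaps Hpd in the annotation. Psme2b, at 18.2, 18.2, 13.4 and 8.25 CPM, was lowest in CKO HFD, where Psme2 was highest, and since the 2 genes have near-identical sequence its UMIs are uncertain.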

How the data were processed

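Macrophages sorted from mouse perigonadal fat were profiled by 10x Genomics 3′ sequencing in 4 libraries, each 1 group. The deposited matrices hold UMI counts per gene and cell that the authors made with Cell Ranger 7.0.0, per the file headers, on GRCm38, per the submitters' processing notes. Cells with at least 500 UMIs, 300 genes and at most 10% mitochondrial UMIs were kept: 3705 of 3737 in WT ND, 4302 of 4327 in CKO ND, 4650 of 5054 in WT HFD and 8731 of 8749 in CKO HFD. Scrublet's automatic threshold called no doublet in any library, so the top-scoring 0.8% per 1000 cells were removed in each (109, 148, 172 and 609 cells). Cells were clustered with scanpy 1.11.5 and python-igraph 0.11.9 (2000 variable genes without the 45 proteasome symbols, 30 components, 15 neighbours, Leiden resolution 1, no integration of libraries). A cluster was named when at least 3 genes of a marker list were among its leading genes.

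Counts were summed over phagocytes (18944429, 21304471, 67951783 and 35391514 UMIs, in the same order) and over each cluster in each library, and divided by the total as CPM. Ratios are of CPM with exact conditional binomial intervals, log2 ratios and calls use CPM + 1, levels have exact Poisson and shares Clopper-Pearson intervals. With 1 library per group no test was run. TMM factors came from edgeR 4.0.16 in R 4.3.3 as an alternative. The ratio script was tested on simulated data. Gene positions are from GENCODE M21 and promoters from RefSeq. Members, lists and rules were chosen with earlier results of these data known. Named are the 10 catalytic and activator genes, the 3 highest and lowest members of each comparison, members outside the subunit lists, of each other list the 3 most abundant genes and those past 1.5-fold in both comparisons of diet or of genotype, the 10 genes most like the immunoproteasome sum, and Prdm1. Other genes were named after their values were seen, and 1 gene that the rule names is not reported here.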

Additional observations from a re-analysis of the deposited data

How the results depend on the processing

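No paired analysis was possible because each group is 1 library. For CKO over WT under HFD (a), CKO over WT under the normal diet (b), HFD over normal diet in WT (c) and in CKO (d), the constitutive median was -0.13, 0.063, 0.39 and 0.22 on the log2 scale. The gap, the immunoproteasome minus the constitutive median, was 0.40, -0.091, -0.13 and 0.45. The inducible share of catalytic UMIs was 52.7 and 51.7% in WT ND and CKO ND, and 45.4 and 47.1% in WT HFD and CKO HFD. Values that moved beyond counting error, or counts of members that moved past 1.5 times, follow by setting. The share of all genes past 1.5-fold is given above for TMM scaling and for dividing cells. It is not given for the other settings, so their counts cannot be read against all genes. With dendritic, lymphoid and fibroblast cells kept, the constitutive median was 0.41 (c) and 0.25 (d) and the share was 46.5% in WT HFD, 47.9% in CKO HFD and 53.8% in WT ND. Without doublet removal, the constitutive median was -0.15 (a) and 0.046 (b) and the gap was 0.41 (d). Without the mitochondrial limit, the constitutive median was -0.15 (a) and the gap was 0.41 (d). Leaving out the interferon-responding-like and classical monocyte-like clusters, the constitutive median was -0.14 (a) and 0.41 (c), the gap was -0.046 (b) and 0.41 (d) and the share was 43.9% in WT HFD, 46.0% in CKO HFD and 51.5% in WT ND. Leaving out dividing cells, the constitutive median was -0.15 (a) and 0.27 (d), the gap was -0.085 (c) and the share was 45.01% in WT HFD. With cells thinned to 2000 UMIs (634, 776, 43 and 1023 shallower cells left out of WT ND, CKO ND, WT HFD and CKO HFD), the constitutive median was -0.085 (a), 0.45 (c) and 0.41 (d), the gap was -0.14 (b) and 0.22 (d) and the share was 47.2% in WT HFD, 48.1% in CKO HFD and 53.2% in CKO ND. Leaving out the lipid-associated-like cluster, chosen after seeing the data, the constitutive median was -0.068 (a), 0.33 (c) and 0.20 (d), the gap was 0.37 (a) and 0.51 (d) and the share was 51.2% in WT HFD, 50.8% in CKO HFD and 53.9% in WT ND, with 0 higher (a) and 1 lower (a) past 1.5-fold. When clusters were weighted equally, over 3 clusters in (a) and (c), 7 in (b) and dividing cells alone in (d), the constitutive median was -0.070 (a), 0.32 (c) and 0.079 (d) and the gap was 0.14 (a), 0.017 (b), -0.083 (c) and 0.33 (d), with 5 higher (d) and 0 lower (c) and 5 lower (d) past 1.5-fold. With TMM scaling, the constitutive median was 0.075 (a), 0.023 (b), 0.58 (c) and 0.65 (d), with 4 higher (a), 19 higher (c) and 26 higher (d) and 0 lower (a) and 1 lower (c) past 1.5-fold. When the total left out mitochondrial and ribosomal genes, Malat1 and Gm42418, the constitutive median was 0.47 (c) and 0.31 (d), with 1 lower (c) past 1.5-fold. With a pseudocount of 10 CPM, the constitutive median was -0.12 (a), 0.35 (c) and 0.19 (d) and the gap was 0.37 (a), with 0 higher (a) and 0 lower (a) and 1 lower (c) past 1.5-fold. At a minimum of 50 CPM, the constitutive median was 0.34 (d) and the gap was 0.33 (d), with 1 lower (a) past 1.5-fold. When the gene-length trend was removed, the constitutive median was -0.055 (a), 0.037 (b), 0.47 (c) and 0.45 (d). The gap was then 0.13 (a), -0.43 (c) and -0.24 (d), with 3 higher (a) and 1 lower (a) past 1.5-fold. Psmb9 was not among the 3 higher, which included Psmb2 at 0.71 and Psmd9 at 0.64. The constitutive median turned sign in (a) with TMM scaling, and the gap turned sign in (b) with clusters weighted equally and in (d) with the gene-length trend removed. The cause was not tested. Clustering at resolutions of 0.5 and 2 and with the 45 symbols or without class I and interferon genes moved 8 of 55 shares of named clusters beyond counting error. Depth limited the rare members and small clusters most.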
